A study of Mus musculus with 8 samples.

Results

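Glycolysis and hypoxia genes are described here in forepaw skin of Krt16 null and wild-type (WT) mice. The set is a list of 34 genes of these pathways, drawn up with earlier results of these arrays known, and a probe set was taken as a member when its annotated symbol was on the list. Of the 34 genes, 32 were measured, among 30702 genes with a named probe set. Gpi1 and Eno1 were not named by the annotation and were not analysed here.

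Krt16 encodes keratin 16, an intermediate filament protein made in thick footpad skin and in wounded or stressed epidermis. The tested mice were 4 Krt16 null animals, 2 males and 2 females, in which bacterial LacZ stands in the place of the Krt16 coding sequence. Their controls were 4 Krt16 WT littermates, also 2 males and 2 females. All 8 were C57Bl/6 mice aged 8 weeks, and the RNA of each went onto 1 Affymetrix array. Every null sample was labelled as a lesion and every WT sample as normal skin, so the effect of the genotype and that of the lesion cannot be told apart. The allele is a germline one, so it is not limited to keratinocytes, and the RNA came from whole paw skin rather than from sorted cells.

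Glycolysis splits glucose into pyruvate in the cytosol, and lactate dehydrogenase can turn the pyruvate into lactate, which leaves the cell through monocarboxylate transporters. When oxygen is short, prolyl hydroxylases no longer mark the transcription factor subunit HIF-1α for destruction, and the factor then binds target genes, among them most genes of glycolysis and the hydroxylase genes themselves. HIF-1α is controlled mainly as a protein, which these arrays do not measure. Epidermis lies away from its blood supply, and keratinocytes are known to use glycolysis heavily.

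HIF binds DNA at a short core, ACGTG or GCGTG, and both were searched on both strands of the promoter windows that RefSeq (GRCm38.p6) gives, 250 bases before to 50 bases after a gene's start. A window is shown for the 4 called genes with the largest differences between null and WT skin among those with a match, with the motif in capitals. A motif on the opposite strand reads CACGT or CACGC in the printed strand, and the palindrome CACGTG counts once on each strand with overlap. Adm lies at chr7:110627407-110627706 on the plus strand, Slc2a1 at chr4:119108495-119108794 on the plus strand, Egln3 at chr12:54203825-54204124 on the minus strand and Pfkfb4 at chr9:108991652-108991951 on the plus strand.
Adm: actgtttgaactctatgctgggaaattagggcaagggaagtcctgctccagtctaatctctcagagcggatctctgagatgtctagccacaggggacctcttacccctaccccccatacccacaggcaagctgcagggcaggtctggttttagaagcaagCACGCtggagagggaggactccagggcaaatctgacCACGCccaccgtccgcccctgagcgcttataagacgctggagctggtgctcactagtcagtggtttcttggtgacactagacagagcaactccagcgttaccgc
Slc2a1: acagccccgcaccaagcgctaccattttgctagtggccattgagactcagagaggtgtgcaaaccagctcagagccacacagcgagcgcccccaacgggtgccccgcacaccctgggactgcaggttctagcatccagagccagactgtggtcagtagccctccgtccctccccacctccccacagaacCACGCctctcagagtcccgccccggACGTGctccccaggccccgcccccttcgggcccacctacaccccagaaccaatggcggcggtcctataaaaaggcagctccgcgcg
Egln3: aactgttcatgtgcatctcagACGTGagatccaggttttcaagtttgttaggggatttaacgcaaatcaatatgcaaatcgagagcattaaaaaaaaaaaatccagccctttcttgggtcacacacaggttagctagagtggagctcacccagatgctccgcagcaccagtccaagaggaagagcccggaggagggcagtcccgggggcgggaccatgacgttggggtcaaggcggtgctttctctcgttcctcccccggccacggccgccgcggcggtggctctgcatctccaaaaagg
Pfkfb4: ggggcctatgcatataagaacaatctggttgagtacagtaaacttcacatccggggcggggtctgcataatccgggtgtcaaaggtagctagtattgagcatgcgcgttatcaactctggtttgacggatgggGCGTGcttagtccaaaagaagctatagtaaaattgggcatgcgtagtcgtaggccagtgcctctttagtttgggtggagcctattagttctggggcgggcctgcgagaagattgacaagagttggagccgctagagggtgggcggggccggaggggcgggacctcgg

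The Adm window held 2 matches to GCGTG, both on the opposite strand, 90 and 54 bases before the start. The Slc2a1 window held GCGTG on the opposite strand 61 bases before the start and ACGTG on the printed strand 36 bases before it. Egln3 had 1 ACGTG at 229 bases and Pfkfb4 1 GCGTG at 117 bases before the start. A window was found for 30 of the 32 measured genes, Slc2a3 and Ndrg1 being the others. Counting every window of a gene with several starts, at least 1 match stood in 13 of the 14 genes that were called different between the genotypes and in 15 of the 16 that were not, Tpi1 and Eno2 being without one. The motif is common: 43.8% of all 32851 windows held either form, 19.6% ACGTG and 32.4% GCGTG. Of the 18263 tested genes with a window 52.0% held one, as did 62.2% of the 1157 genes called higher in null skin that had a window. The match therefore describes the letters of these windows and separates neither the called from the uncalled genes nor a bound from an unbound site.

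**Figure D1:**
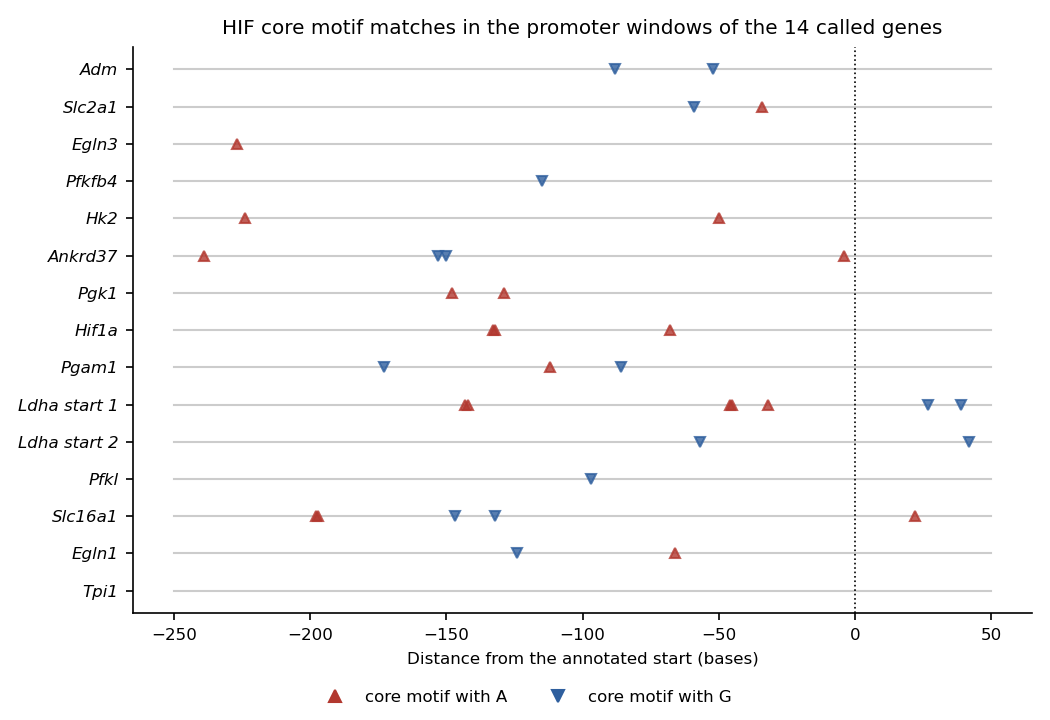
Positions of core motif matches in the promoter windows of the 14 called genes, in bases from the annotated start (x axis), 1 row per window, with upward triangles for ACGTG and downward ones for GCGTG on either strand. Matches stand in 13 of the 14 genes and none in Tpi1, and Ldha has a row for each of its annotated starts.

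Signals are given as RMA log2 values, so that 1 unit is a 2-fold difference. Differences were taken as null minus WT, and limma, with sex as a covariate, gave each a standard error (SE). Calls required a p under 0.05 after Benjamini-Hochberg adjustment over all 30702 genes. Krt16 itself stood at 6.83, 6.87, 6.89 and 6.99 in the null arrays, against 8.48, 8.20, 7.05 and 9.66 in the WT arrays (difference -1.45, SE 0.44, limma adjusted p = 0.0615). With the replicate block of same-numbered pairs Krt16 was called lower (adjusted p = 0.0285), as it was without the sex term, with array weights and among genes above the median gene. With the muscle covariate described below the difference was -3.08 (SE 0.58, limma adjusted p = 0.0489). Leaving out 1 array gave differences of -1.98 to -0.94, with a call in 1 of these fits. All null arrays lay below all WT arrays, but female WT 1, at 7.05, was close to the null arrays. The null signals of 6.83 to 6.99 lay above the negative control medians of 4.26 to 4.46. Whether the probes of Krt16 lie within the replaced sequence is not stated, and the source of the signal in null skin was not tested.

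Of the 32 genes, 14 were called higher in null skin, 0 were called lower and 18 were not called, 5 of which had an unadjusted p under 0.05. Over all genes, 2168 (7.06%) were called higher and 1837 (5.98%) lower, against 43.75% of this list called higher. All genes include many dim ones, so the share is larger among brighter genes. In a fit of the 17684 genes with a mean signal above the negative controls, 2196 were called higher and 2042 lower. Of the list, 15 were then called higher and 1 lower. The median difference was 0.23 over the list and 0.01 over all genes. The called genes ran through every role. They included the glucose transporter gene Slc2a1, 5 of 13 glycolytic enzyme genes, 2 of 4 lactate genes, the oxygen sensors and secreted adrenomedullin. All null arrays lay above all WT arrays in 14 of the 32 genes, against 10.1% of all genes, and below them in 1, Ldhb, against 8.76% of all genes. Of these 14 genes 13 were called, the exception being Pkm, and 1 called gene, Slc16a1, had overlapping groups. In size the rises were mostly modest: only Adm, Slc2a1 and Egln3 were at least 2-fold higher, and the median of the 14 called differences was 0.49, against 0.37 over all genes called higher.

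**Figure D2:**
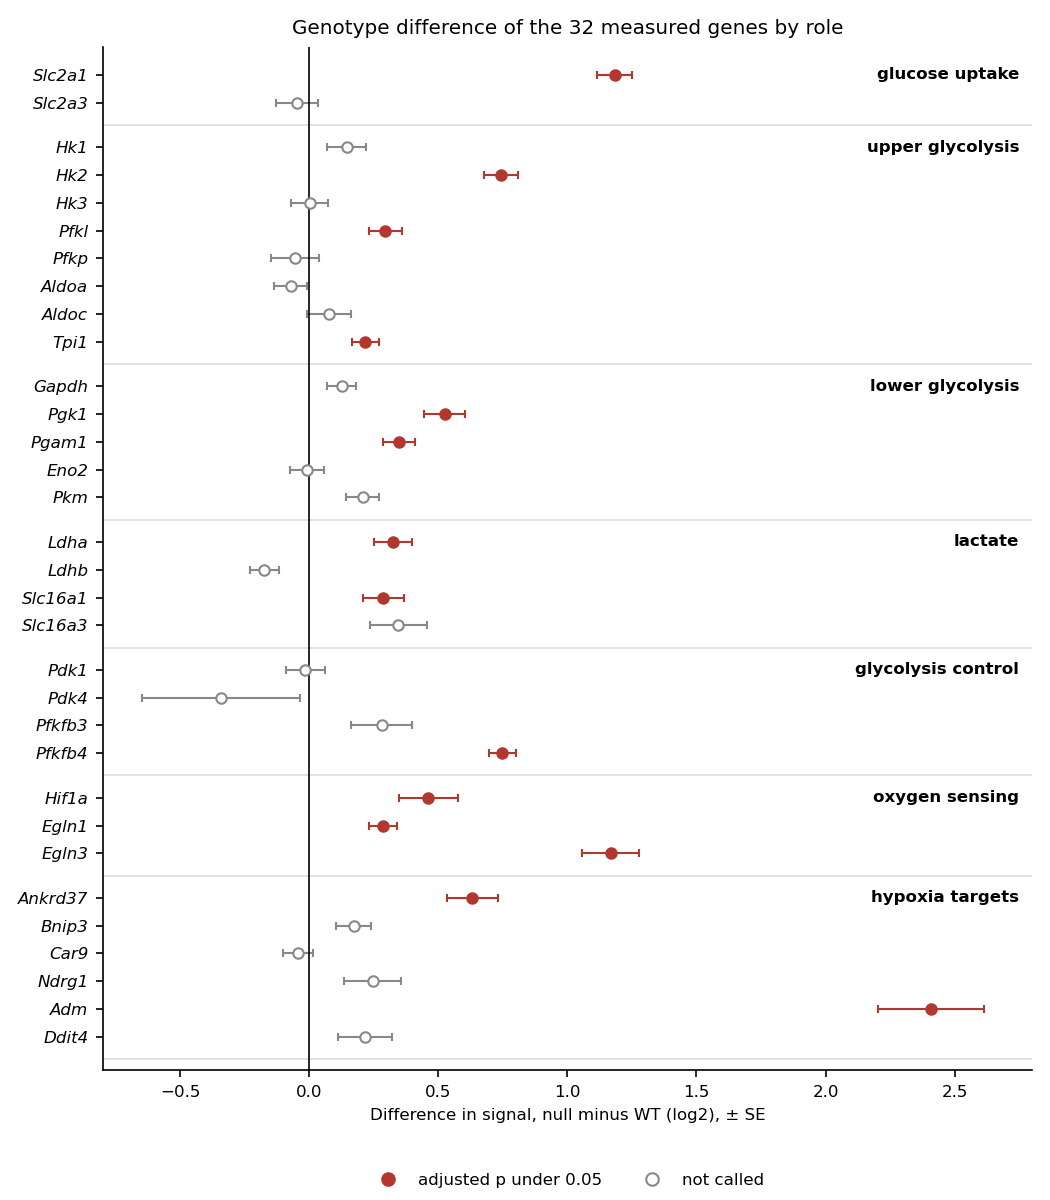
Null minus WT difference in log2 units (x axis) with bars of 1 SE for the 32 measured genes, grouped by role, with filled points for called and open points for uncalled genes. Adm (2.41) stands apart from Slc2a1 (1.18) and Egln3 (1.17), and the 18 uncalled genes run from -0.34 to 0.34.

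Some markers of tissue makeup also differed between the genotypes. Of 22 skeletal muscle markers, 18 were called lower in null skin and 0 higher. The count of lower markers was 8 without female null 1, 9 without male null 2, 9 without male WT 1 and 12 without female null 2, and 17 to 19 without each of the other 4 arrays. Their mean over the list was 7.68 to 8.17 in the null arrays, against 8.41 to 9.16 in the WT arrays, and Myh1, a fast myosin heavy chain, and Atp2a1, the calcium pump of fast muscle, which have the highest signals of that list, differed by -0.87 and -0.93. The 13 keratinocyte markers averaged 10.80 to 10.87 in null and 10.75 to 10.99 in WT arrays, with 1 called higher and 3 lower. The suprabasal keratins Krt1 and Krt10, with the highest signals, differed by 0.09 and -0.08 and were not called. The called ones, named after their values were seen, were Sfn (0.72), Krt2 (-0.60), Krt15 (-0.56) and Lor (-0.35). The call of Lor was kept in 4 of the 8 fits that leave out 1 array. In bulk tissue, fewer cells of a type and less RNA per cell cannot be told apart.

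Among the glucose transporters, Slc2a1, which encodes the widespread transporter GLUT1, had 9.17, 9.28, 9.03 and 9.12 in null arrays (male 1, male 2, female 1 and female 2, the order used for all genes below), against 8.07, 7.89, 7.87 and 8.03 in WT arrays. The groups did not overlap. The difference was 1.18 (SE 0.07, 2.27-fold, limma adjusted p = 1.76e-05). Slc2a3, the high-affinity transporter GLUT3 of neurons and white blood cells, was dim, at 4.36 to 4.52 in null and 4.30 to 4.81 in WT arrays, near the negative control medians of 4.26 to 4.46. Its difference was -0.05 (SE 0.08, limma adjusted p = 0.79).

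In upper glycolysis, 3 of 8 measured genes were called. Hexokinase 2 (Hk2), the inducible enzyme that traps glucose as glucose 6-phosphate, had 8.47, 8.47, 8.40 and 8.24 in null arrays, against 7.55, 7.73, 7.67 and 7.65 in WT arrays. Every null array exceeded every WT array, by 0.74 on average (SE 0.07, 1.67-fold, limma adjusted p = 0.000288). Hk1, the constitutive hexokinase, stood at 7.01 to 7.20 in null and 6.80 to 7.06 in WT arrays (difference 0.14, SE 0.07, limma adjusted p = 0.263), with overlapping groups. Hk3, found mainly in myeloid cells, lay at 4.64 to 4.77 in null and 4.57 to 4.86 in WT arrays, with a difference of 0.00 (SE 0.07).

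Phosphofructokinase carries out the committed step of the pathway. Its liver-type gene Pfkl had 7.21, 7.29, 7.35 and 7.18 in null arrays, against 6.98, 6.96, 6.86 and 7.04 in WT arrays, a rise of 0.30 (SE 0.06, limma adjusted p = 0.0168). The gap between the groups was narrow, and leaving out male null 2 (adjusted p = 0.0608) or female null 1 (adjusted p = 0.0619) ended the call. The platelet-type gene Pfkp did not separate the groups, at 7.88 to 8.17 in null and 7.89 to 8.29 in WT arrays (difference -0.05, SE 0.09). The aldolase genes Aldoa and Aldoc, whose enzymes cleave fructose 1,6-bisphosphate, had differences of -0.07 (SE 0.06) and 0.08 (SE 0.09) and were not called. Tpi1, the triose phosphate isomerase, had 8.01, 8.00, 8.00 and 7.92 in null arrays, against 7.82, 7.76, 7.80 and 7.68 in WT arrays. Although the groups did not overlap, this was the smallest called difference of the list, 0.22 (SE 0.05, limma adjusted p = 0.0268), and leaving out any 1 of 7 arrays ended the call (adjusted p = 0.0521 to 0.0953); without female WT 1 it was kept.

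**Figure D3:**
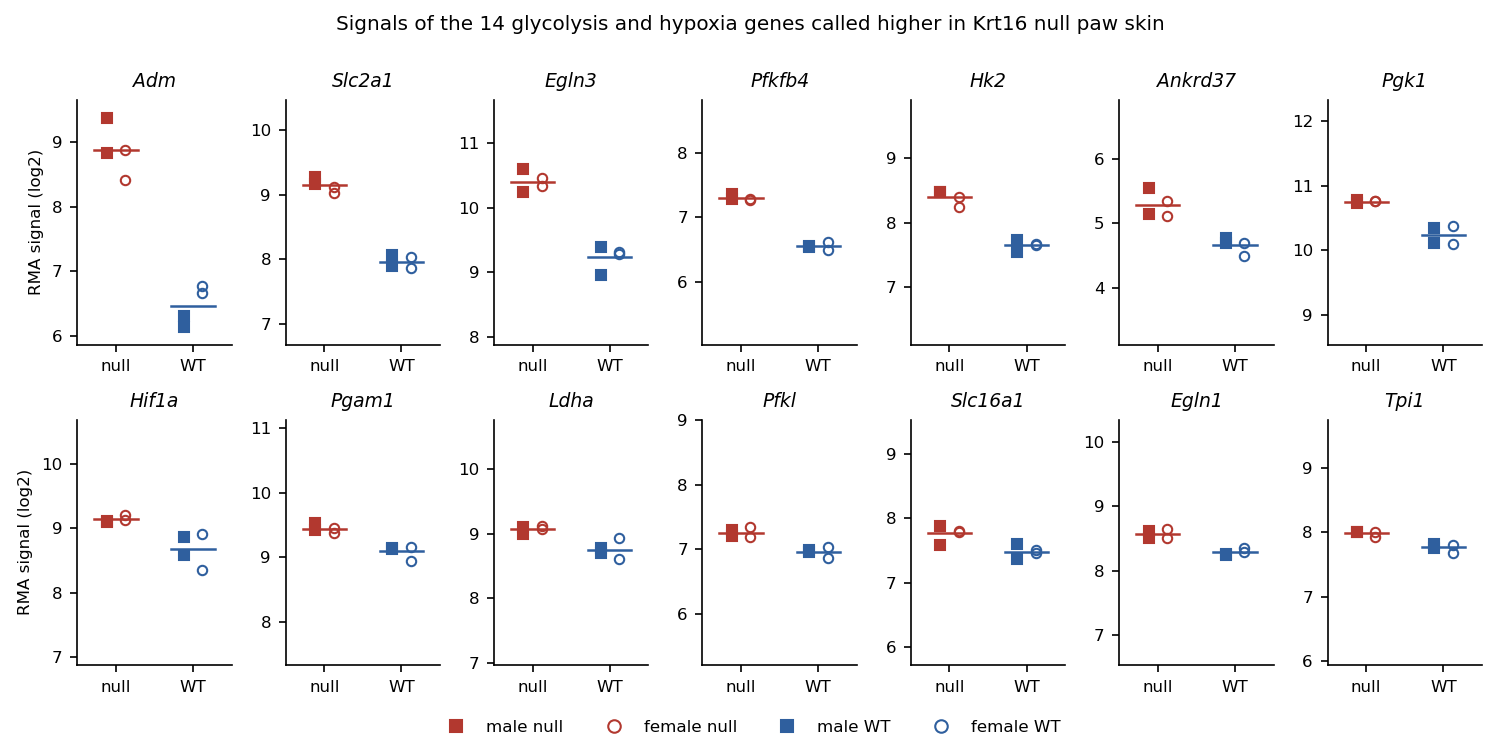
RMA signal on the log2 scale (y axis) in each of the 8 arrays for the 14 called genes, with null arrays left of WT arrays, squares for males, circles for females and a line at each group mean. The groups overlap in Slc16a1 alone, and the WT arrays of Hif1a spread from 8.36 to 8.91.

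In lower glycolysis 2 of 5 measured genes were called. Pgk1, phosphoglycerate kinase, which makes the first ATP of the pathway, had 10.73, 10.78, 10.76 and 10.77 in null arrays, against 10.35, 10.11, 10.10 and 10.38 in WT arrays (difference 0.52, SE 0.08, 1.44-fold, limma adjusted p = 0.00359). The null arrays were nearly identical and the WT arrays more spread. This probe set, the brighter of those annotated with Pgk1, carries chromosome 12 in its identifier, where RefSeq lists a Pgk1-related sequence, while Pgk1 itself lies on X, and whether the signal is shared between the copies was not tested. The probe set placed on X had 8.77, 8.81, 8.83 and 8.77 in null arrays, against 8.25, 8.06, 7.96 and 8.36 in WT arrays, a difference of 0.64 (SE 0.09) with a limma adjusted p of 0.00334 over all probe sets. Both sets thus gave a rise with no overlap between the genotypes.

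Pgam1, phosphoglycerate mutase, had 9.43, 9.53, 9.45 and 9.38 in null arrays, against 9.15, 9.13, 8.94 and 9.17 in WT arrays. Its difference was 0.35 (SE 0.06, 1.27-fold, limma adjusted p = 0.00876), again with no overlap. Pkm, pyruvate kinase, which makes pyruvate and the last ATP, separated the groups at 9.60 to 9.76 in null and 9.38 to 9.57 in WT arrays, but its difference of 0.21 (SE 0.06) was not called (limma adjusted p = 0.0683). The signal is per gene and does not tell the M1 and M2 forms of pyruvate kinase apart. Gapdh, often used as a reference gene, differed by 0.13 (SE 0.06, limma adjusted p = 0.202) and has many processed copies in the mouse genome. Eno2, the neuronal enolase, was not far above the negative controls in either group, with a difference of -0.01 (SE 0.07).

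Of the 4 lactate genes, 2 were called higher. Ldha, whose subunit favours the making of lactate, had 9.0, 9.10, 9.13 and 9.08 in null arrays, against 8.70, 8.78, 8.61 and 8.93 in WT arrays, a difference of 0.32 (SE 0.07, limma adjusted p = 0.0222). The groups did not overlap, with female WT 2 the nearest to the null arrays. The call was lost without male null 2, female null 1, female null 2 or male WT 1 (adjusted p = 0.0518 to 0.0770). Ldhb, whose subunit favours the use of lactate, lay lower in every null array, at 6.20 to 6.33, than in any WT array, at 6.36 to 6.51, but its difference of -0.18 (SE 0.06) was not called (limma adjusted p = 0.0756).

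Slc16a1, the lactate transporter MCT1, had 7.59, 7.89, 7.79 and 7.81 in null arrays, against 7.37, 7.60, 7.51 and 7.46 in WT arrays. Male null 1 lay just below male WT 2, and the difference of 0.29 (SE 0.08, limma adjusted p = 0.0438) was the call nearest the threshold. It was lost without any 1 of 6 arrays (adjusted p = 0.0608 to 0.132). Slc16a3, the exporter MCT4 of highly glycolytic cells, overlapped between the groups, at 5.50 to 5.77 in null and 5.02 to 5.51 in WT arrays. Its difference of 0.34 (SE 0.11) was not called (limma adjusted p = 0.0739). With the 4 same-numbered pairs of mice as a replicate block it was (adjusted p = 0.0421), as it was without female WT 1 (difference 0.45, adjusted p = 0.0118).

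Of the genes that control the pathway, Pfkfb4 rose. It encodes a bifunctional enzyme that makes and removes fructose 2,6-bisphosphate, the activator of phosphofructokinase. Pfkfb4 had 7.36, 7.29, 7.27 and 7.28 in null arrays, against 6.56, 6.54, 6.61 and 6.49 in WT arrays (difference 0.75, SE 0.05, 1.68-fold, limma adjusted p = 5.57e-05). The arrays varied little, with an SD of 0.04 in null and 0.05 in WT arrays, and the groups did not overlap. Pfkfb3, the related gene with the strongest kinase activity, stood at 6.67, 6.43, 6.44 and 6.41 in null arrays, against 6.09, 6.09, 6.56 and 6.08 in WT arrays. Its difference of 0.28 (SE 0.12) was not called (limma adjusted p = 0.161). Female WT 1 alone lay among the null values, and without it the difference was 0.41 and was called (adjusted p = 0.00747).

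The pyruvate dehydrogenase kinases, which keep pyruvate out of the mitochondrion, were not called. Pdk1, a known HIF target, differed by -0.01 (SE 0.07), with 6.74 to 6.97 in null and 6.70 to 6.99 in WT arrays. Pdk4, a gene of fasting and of muscle, varied most within groups, from 6.31 to 7.92 in null and from 6.78 to 7.80 in WT arrays (difference -0.34, SE 0.31).

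All 3 oxygen sensing genes were called. Hif1a had 9.10, 9.12, 9.21 and 9.13 in null arrays, against 8.86, 8.59, 8.36 and 8.91 in WT arrays (difference 0.46, SE 0.12, 1.38-fold, limma adjusted p = 0.0310). The SD was 0.05 among null arrays and 0.26 among WT arrays, and the call was lost when any 1 of 5 arrays was left out (adjusted p = 0.0562 to 0.0980). Egln1, the prolyl hydroxylase PHD2 that sets HIF-1α in most cells, had 8.61, 8.51, 8.64 and 8.51 in null arrays, against 8.24, 8.26, 8.29 and 8.35 in WT arrays. That rise of 0.29 (SE 0.05, 1.22-fold, limma adjusted p = 0.0107) held without each array in turn.

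Egln3, the hydroxylase PHD3 and itself a strongly inducible HIF target, had 10.60, 10.24, 10.34 and 10.46 in null arrays, against 8.96, 9.40, 9.29 and 9.31 in WT arrays. Its difference of 1.17 (SE 0.11, 2.25-fold, limma adjusted p = 0.000351) came with no overlap between the groups.

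The hypoxia targets outside glycolysis were divided. Adm encodes adrenomedullin, a secreted peptide that widens vessels and acts on epithelia. It had 8.83, 9.38, 8.41 and 8.87 in null arrays, against 6.31, 6.14, 6.66 and 6.77 in WT arrays, the largest difference of the list at 2.41 (SE 0.21, 5.31-fold, limma adjusted p = 0.000203). The groups did not overlap. Ankrd37, an ankyrin repeat gene induced by HIF, had 5.55, 5.15, 5.12 and 5.34 in null arrays, against 4.69, 4.77, 4.69 and 4.49 in WT arrays. Its rise was 0.63 (SE 0.10, 1.55-fold, limma adjusted p = 0.004), from WT values not far above the negative controls.

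The other 4 targets were not called. Bnip3, which marks mitochondria for removal, had a difference of 0.17 (SE 0.07, limma adjusted p = 0.141), Ndrg1, a stress-responsive gene of differentiating epithelia, 0.25 (SE 0.11, limma adjusted p = 0.192), and Ddit4, an inhibitor of mTORC1, 0.22 (SE 0.11, limma adjusted p = 0.233). Car9, the membrane carbonic anhydrase often used as a marker of hypoxia, lay at 4.08 to 4.22 in null and 4.14 to 4.24 in WT arrays. Every one of these arrays was below its own negative control median, which holds for no other gene of the list, so a change of Car9 could not be measured at this signal.

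Members of a gene family were then set against each other within each array, to ask whether they moved unequally. The 11 pairs were formed after the values were known and so describe them. In 7 pairs the within-array difference did not overlap between the genotypes: Egln3 over Egln1 by 0.88 (SE 0.12), Hk2 over Hk1 by 0.60 (SE 0.12), Ldha over Ldhb by 0.50 (SE 0.09), Pfkfb4 over Pfkfb3 by 0.47 (SE 0.11), Pfkl over Pfkp by 0.35 (SE 0.09), and 2 pairs whose second gene lies near the negative controls, Slc2a1 over Slc2a3 by 1.23 (SE 0.17) and Hk2 over Hk3 by 0.74 (SE 0.11). Each is the null minus WT difference of the one gene minus that of the other. The exact two-sided permutation p was 0.0286 for each, the smallest that 70 assignments of 4 and 4 arrays allow (0.0449 adjusted over the 11 pairs). It restates the lack of overlap and gives no independent support, because the pairs were formed with the values known. In 4 pairs the groups overlapped: Hk1 and Hk3 (0.14, exact p = 0.314), Aldoa and Aldoc (-0.15, exact p = 0.2), Pdk1 and Pdk4 (0.33, exact p = 0.514), and the lactate transporters Slc16a1 and Slc16a3 (-0.06, SE 0.14, exact p = 0.8). Pairs that share a gene are not separate pieces of evidence, and against Slc2a3 or Hk3, whose own change can hardly be measured at that signal, the contrast restates the rise of Slc2a1 or Hk2.

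**Figure D4:**
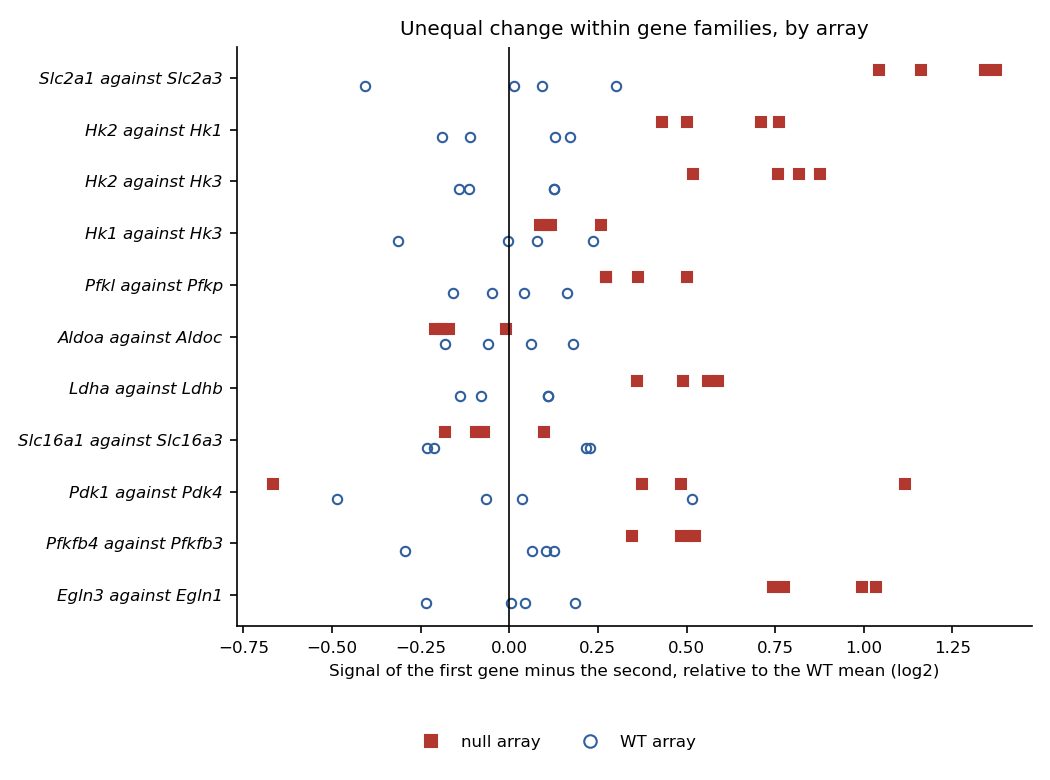
Signal of the first gene minus that of the second in each array, in log2 units relative to the WT mean (x axis), for 11 pairs of related genes, with filled squares for null and open circles for WT arrays. Null and WT arrays do not overlap in 7 pairs, from 1.23 for Slc2a1 and Slc2a3 to 0.35 for Pfkl and Pfkp. In 2 of these 7 the second gene (Slc2a3, Hk3) lies near the negative controls.

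The rises were present in both sexes. All 14 called genes were higher in null skin in males and in females. Adm differed by 2.89 in males and 1.93 in females, with an unadjusted interaction p of 0.00933 in limma, but an adjusted p of 0.974 over all genes. It was the only gene of the list with an unadjusted interaction p under 0.05, and 0 of 32 passed after adjustment, against 2 of all genes (0.00651%; 1307 at an unadjusted p under 0.05). With 2 mice per sex and genotype, this does not show that the sexes respond alike.

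Because muscle markers were lower in null skin and muscle has isozymes and glycogen of its own, the fit was repeated with the mean of the 22 markers as a covariate. Sex and this mean account for 73.4% of the genotype term, so the fit has little room, and the median SE of the 14 called genes was 0.13, against 0.07 without the covariate. Over all genes 225 (0.733%) were then called higher and 128 (0.417%) lower; of the list, 7 were called higher and 0 lower. Of the 14 called genes, 6 remained: Adm (2.65), Egln3 (1.22), Slc2a1 (1.15), Ankrd37 (0.88), Pfkfb4 (0.86) and Hk2 (0.75). The limma adjusted p was 0.00533 for Pfkfb4, 0.00696 for Slc2a1 and 0.0211 for Adm. Nearer the threshold were Hk2 (0.0398), Egln3 (0.0401) and Ankrd37 (0.0490). Pfkfb3, not called before, was called at 0.77 (limma adjusted p = 0.0302). Female WT 1, with the highest Myh1 (11.21) and Atp2a1 (11.12) signals, was also the only WT array high in Pfkfb3 (6.56). The neutrophil markers Ngp (3.40) and Ltf (2.37), highest in that same array, were likewise called higher only with the covariate. These 2 were named after their values were seen. Whether the Pfkfb3 call rests on that array was not tested.

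The other 8 were not called with the covariate, in different ways. Pgk1 (0.39), Tpi1 (0.29), Egln1 (0.27) and Slc16a1 (0.17) kept at least 0.5 of their difference with a wider error. Pgam1 (0.16), Pfkl (0.12), Hif1a (0.10) and Ldha (0.05) kept less than that share. The 0.5 cut is only descriptive, since the SE with the covariate was 0.15 for Slc16a1 and 0.10 for Pgam1. For every called gene, also those that kept the call, the shares that move with the muscle markers and with genotype cannot be told apart here.

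**Figure D5:**
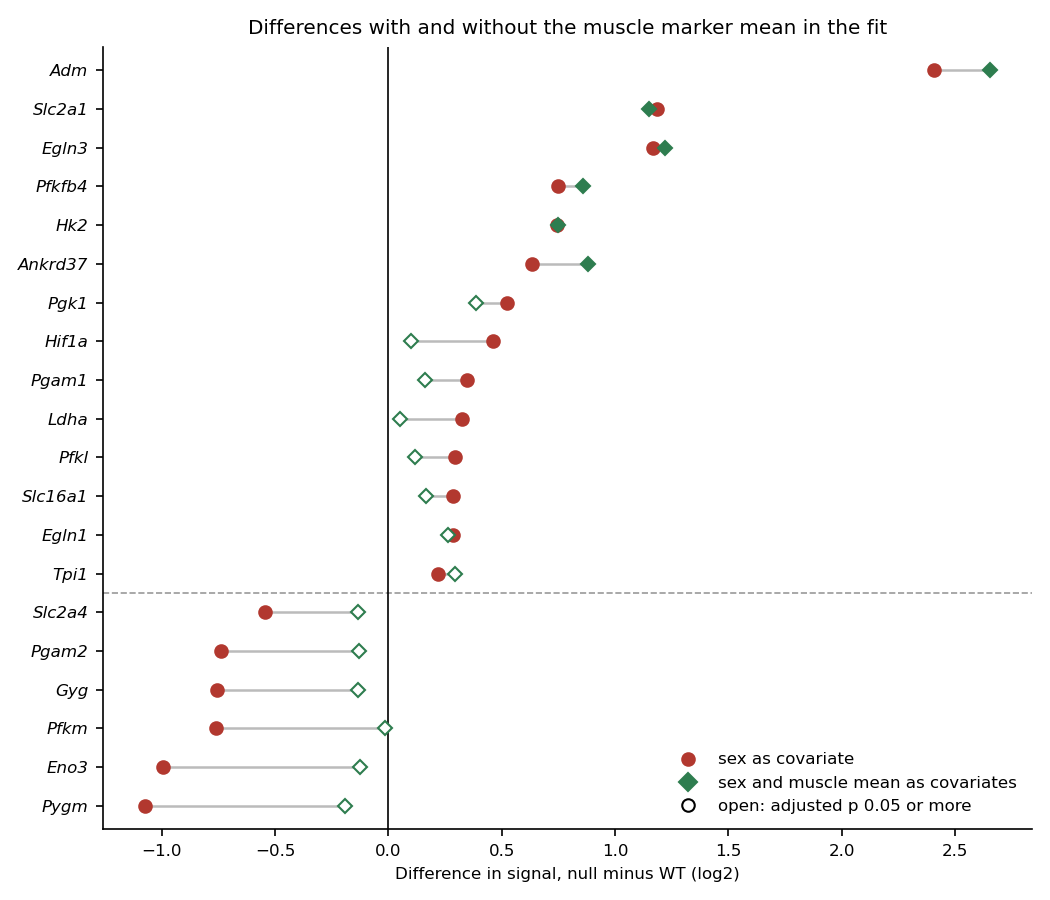
Null minus WT difference in log2 units (x axis) with sex as covariate (circles) and with sex and the muscle marker mean as covariates (diamonds, open where not called), for the 14 called genes and, below the dashed line, 6 genes of other pathway lists that were called lower, picked after their values were seen. Adm, Slc2a1, Egln3, Pfkfb4, Hk2 and Ankrd37 keep filled diamonds, while Hif1a and Ldha move to 0.10 and 0.05, and Pfkm to -0.01.

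The other genes of these pathways moved in both directions. Of 26 measured other HIF targets, 8 were called higher and 2 lower, with a median difference of 0.08. The largest rises were Edn1, the vessel-constricting peptide endothelin 1, at 1.39 (SE 0.15, limma adjusted p = 0.00086), and Ero1a, an oxidase of protein folding in the endoplasmic reticulum, at 1.28 (SE 0.11, limma adjusted p = 0.00026). The falls were Narf at -0.42 and Gbe1, the glycogen branching enzyme, at -0.41, and the call of Gbe1 was lost in 2 of the 8 fits that leave out 1 array. With the muscle covariate 3 of the 8 rises and 0 of the 2 falls were called: Ero1a kept its call at 0.92, while Edn1 (1.09, limma adjusted p = 0.105), Narf (-0.47, limma adjusted p = 0.14) and Gbe1 (-0.15, limma adjusted p = 0.724) did not. Of 9 other oxygen sensing genes 0 were called higher and 2 lower: Cited2, whose protein competes with HIF-1α for a coactivator, at -0.47 (SE 0.06, limma adjusted p = 0.00119), and Epas1, which encodes HIF-2α, at -0.35 (SE 0.07, limma adjusted p = 0.00985).

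With the muscle covariate neither Cited2 (-0.54, limma adjusted p = 0.0538) nor Epas1 (-0.33, limma adjusted p = 0.285) was called. Of 9 other glucose transporters, 1 was called higher and 3 lower. Slc5a1, the sodium-coupled transporter SGLT1, had 8.42, 8.74, 8.66 and 8.57 in null arrays, against 7.25, 7.51, 7.20 and 7.58 in WT arrays, a difference of 1.21 (SE 0.11, limma adjusted p = 0.000224) beside 1.18 for Slc2a1. Slc2a12 had a difference of -0.83 (SE 0.08), Slc2a4, the insulin-dependent transporter GLUT4 of muscle and fat, -0.54 (SE 0.11), and the fructose transporter gene Slc2a5 -0.46 (SE 0.06).

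Of 10 other glycolytic isozymes, 0 were called higher and 3 lower, Eno3 (-0.996, SE 0.18), Pfkm (-0.76, SE 0.16) and Pgam2 (-0.74, SE 0.14). These are the muscle forms of enolase, phosphofructokinase and phosphoglycerate mutase, and with the muscle covariate their differences were -0.13, -0.01 and -0.13, none of them called. The call of Pfkm was also lost in 3 of the 8 fits that leave out 1 array. Slc2a4 likewise went to -0.13 with the covariate and was not called. Slc2a12 stayed at -0.82 (limma adjusted p = 0.0490) and Slc5a1 at 0.80 (limma adjusted p = 0.0288), both still called. Slc2a5 stayed at -0.45 but was no longer called (limma adjusted p = 0.133). Pgam2 and Slc2a5 lie outside the rule for named genes and were added after their values were seen.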

How the data were processed

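Total RNA of 8 forepaw skin samples was labelled with the Affymetrix WT PLUS kit, 1 single-colour array per mouse. The authors deposited log2 values, 1 per probe set and array, made with Partek and RMA per the submitters' processing notes. RMA subtracts background, normalizes quantiles and summarises probes, and it compresses large differences. Tool versions, settings and genome build are not stated in those notes. The values run from 1.36 to 13.6.

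Of 72688 probe sets, 6732 controls were left out. The array annotation used here lists 32750 of the rest, 30604 with 1 symbol and 2146 with several. Symbols of 2092 were updated through a RefSeq gene table (GRCm38.p6), which left 31258 probe sets that each name 1 gene, and 30702 genes. Of several probe sets (441 genes) the brightest was used, and dim genes were kept. The 5222 negative control probe sets had medians of 4.26 to 4.46 per array, and positive controls stood 3.34 to 3.54 above them. Arrays have no depth, and their number limits the precision.

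Differences were fitted with limma 3.58.1 in R 4.3.3 (eBayes with an intensity trend, sex as covariate, 5 residual degrees of freedom). For the comparison of the sexes each of the 4 groups had its own mean (4 residual degrees of freedom). Family pairs were compared by exact permutation in scipy 1.17.1.

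The genes and lists were chosen with earlier results of these data known. All measured genes of the list are described, with every array's value for each called one. From each other pathway list the text names at most the 2 largest called rises and falls, and markers by their level. Exceptions are marked where they are named. The design had foreseen proteins of at most 2 genes, which are not shown here.

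The labels number the mice within sex and genotype. After removal of group means, the correlation of same-numbered null and WT arrays was 0.316 for males and 0.115 for females. Both are over the limit of 0.1 set for trying a block, and each value is shared by both pairs of its sex. With 2 mice per group, the sign of this correlation turns when the numbers within a group are exchanged, so it cannot show that mice are pairs. A replicate block of the 4 pairs was therefore tried as an alternative, though the labels do not say that same-numbered mice are pairs. Other alternatives were each array left out, 1 sex alone, a muscle covariate, array weights, a robust prior, no intensity trend, no sex term, other probe set rules, 2 dim-gene filters, median centring and a second quantile normalization.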

Additional observations from a re-analysis of the deposited data

Results flagged for a closer look

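Within groups of 4 arrays, 64 of which were examined for the 32 genes, 3 held an array far from the other 3, where chance gives about 5%. For Pfkfb3, male null 1 lay above the other null arrays at 6.67, and female WT 1 lay above the other WT arrays at 6.56. For Tpi1, female null 2 lay below the other null arrays at 7.92. Without female null 2, the Tpi1 difference was 0.23 and was not called (limma adjusted p = 0.0521), and without male null 1 that of Pfkfb3 remained uncalled.

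Of 5 probe sets of these genes that the comparison did not use, 4 differed between the genotypes, with no overlap between null and WT arrays. The fifth, shared by Gapdh and Gm7336, differed by -0.08 (SE 0.04, limma adjusted p = 0.342) and overlapped, beside 0.13 for the Gapdh probe set. A probe set annotated with both Hif1a and Gm15283 had 5.35, 5.62, 5.50 and 5.76 in null arrays, against 4.54, 4.34, 4.34 and 4.31 in WT arrays, a difference of 1.18 (SE 0.10, limma adjusted p = 0.000267 over all probe sets). Its WT values lie at about the level of the negative controls (medians 4.26 to 4.46), and the difference is then only approximate. Gm15283 is a non-coding gene that overlaps Hif1a, and the 2 cannot be told apart in this probe set. The second Pgk1 probe set differed by 0.64. For Pgam1, the probe set shared with Gm8910 differed by 0.46 (SE 0.09, limma adjusted p = 0.0188) and that shared with Pgam1-ps2 by 0.53 (SE 0.09, limma adjusted p = 0.00988), beside 0.35 for Pgam1 alone. The source of the signal in the shared probe sets was not tested.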

How the results depend on the processing

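Under 22 alternatives the 14 called genes kept a positive difference in all 308 values, and in 253 of them also the call. With the replicate block of 4 pairs, 15 genes of the list were called higher, and the block added Slc16a3, ended no call on the list and called Krt16 lower. Repeated quantile normalization left 10, ending the calls of Hif1a (adjusted p = 0.053), Ldha (0.0507), Slc16a1 (0.092) and Tpi1 (0.0957). The list's count was 7 with the muscle covariate (225 of all genes higher, 128 lower), 6 in males alone (801 and 388) and 4 in females alone (230 and 142), where fewer arrays were fitted. Both filters on dim genes and the array weights each called 1 gene lower, Ldhb, and added Pkm among the higher ones, and the array weights also added Slc16a3. Leaving out each array in turn gave 9 to 15 genes higher and 0 lower on the list, and 1205 to 2288 higher and 840 to 1865 lower over all genes. The list's count was 9 without male null 2 (1205 and 840 over all genes) and 9 without female null 1 (1228 and 843). Over all genes it was 1310 and 1075 without male WT 1, and 1111 lower without female null 2.

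On the list, signs turned only for uncalled genes. With the muscle covariate these were Slc2a3 (0.182), Hk1 (-0.079), Aldoc (-0.198), Eno2 (0.132) and Pdk4 (0.318). Outside the list, the uncalled Krt1 turned with that covariate (-0.039). So did some of the 22 muscle markers that make up its mean, called ones among them. In males alone signs turned for Slc2a3 (0.041), Hk3 (-0.012) and Pdk4 (0.08), in females alone for Eno2 (0.034) and Pdk1 (0.048), and with median centring for Hk3 (-0.001). With 1 array left out the differences ran from -0.061 to 0.057 for Hk3, from -0.053 to 0.028 for Eno2 and from -0.086 to 0.031 for Pdk1. They ran from -0.098 to 0.038 for Slc2a3 and from -0.139 to 0.014 for Pfkp, and the Slc16a1 and Slc16a3 contrast from -0.137 to 0.017. The cause was not tested.

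Signals near the negative controls (Slc2a3, Car9) limit what a difference can show.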

Other observations

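Genes of neighbouring pathways add to the picture. Of 5 measured pentose phosphate genes, which divert glucose 6-phosphate to NADPH and ribose, 3 were called higher in null skin and 0 lower, with a median difference of 0.28. G6pdx and Tkt were also listed but not measured, so the pathway is covered only in part. Pgd, which makes NADPH, stood at 7.48, 7.77, 7.55 and 7.65 in null arrays, against 6.91, 6.99, 6.76 and 6.84 in WT arrays (difference 0.74, SE 0.07, 1.67-fold, limma adjusted p = 0.000503). Taldo1, transaldolase, differed by 0.33 (SE 0.06, limma adjusted p = 0.0101). Rpia, ribose 5-phosphate isomerase, differed by 0.28 (SE 0.06, limma adjusted p = 0.0216), a call kept in 4 of the 8 fits that leave out 1 array; it was named after its value was seen. None of the 3 was called with the muscle covariate, where the differences were 0.56, 0.18 and 0.36.

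Glycogen genes went the other way. Of 10 measured, 0 were called higher and 5 lower, with a median difference of -0.42. The largest falls were Pygm, muscle glycogen phosphorylase, at -1.07 (SE 0.19, limma adjusted p = 0.00817), and Gyg, glycogenin, which primes the polymer, at -0.75 (SE 0.13, limma adjusted p = 0.00748). With the muscle covariate their differences were -0.19 and -0.14, and 0 of the 10 were called.

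At the entry of pyruvate into the mitochondrion and in other lactate genes, 2 of 13 were called higher and 4 lower. Emb, embigin, which partners lactate transporters, differed by 0.52 (SE 0.08, limma adjusted p = 0.00456) and Pdp2, a pyruvate dehydrogenase phosphatase, by 0.37 (SE 0.07, limma adjusted p = 0.0116). Pdk2, a pyruvate dehydrogenase kinase, differed by -0.79 (SE 0.13, limma adjusted p = 0.00612) and Slc16a7, the lactate and pyruvate transporter MCT2, by -0.54 (SE 0.14, limma adjusted p = 0.0348), a call kept in 1 of the 8 fits that leave out 1 array. With the muscle covariate Pdk2 (-0.21), Emb (0.27) and Pdp2 (0.43) were not called, and Slc16a7 was, at -1.05 (limma adjusted p = 0.0429). Of 7 gluconeogenesis genes, Pcx, pyruvate carboxylase, was called higher (0.26, SE 0.05, limma adjusted p = 0.0156) and G6pc3, a glucose 6-phosphatase, lower (-0.23, SE 0.06, limma adjusted p = 0.0291), kept as calls in 5 and 2 of those 8 fits and called in neither case with the muscle covariate.

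Markers of other cell types of skin were counted too. Of 8 endothelial markers, 2 were called higher and 0 lower, of 10 neutrophil markers 1 and 0, of 10 macrophage markers 1 and 2, of 7 fibroblast markers 0 and 2, of 7 adipocyte markers 0 and 1, of 4 red blood cell markers 0 and 0, and of 8 immediate early genes, a sign of handling or stress, 2 and 0. Over all genes 7.06% were called higher and 5.98% lower, and 1 call in a list of 10 is close to such a share. Leaving out 1 array gave 0 to 7 macrophage and 0 to 2 fibroblast markers lower, with 7 macrophage markers without male null 1, and 0 to 3 endothelial, 1 to 3 neutrophil and 1 to 3 immediate early markers higher. With the replicate block, 5 macrophage markers were lower, and 2 neutrophil and 4 immediate early markers were higher. Their part in the differences described above was not tested.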
